A study of Mus musculus with 6 samples.

Results

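Ifng encodes interferon-γ, the cytokine by which Th1 cells are defined. Its locus was taken as 1 interval of 40 kb in the mm9 build, chr10:117860001-117900000, which holds the gene on the plus strand near 117878100 to 117883000. The rule uses the name and place of the gene and no measured value. The interval is 1 of 63338 stretches of 40 kb with at least 10 positions over the Th1 Ezh2 and input libraries together, and it was divided into 40 bins of 1 kb.

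The study examined where Ezh2 binds in mouse helper T cells by chromatin immunoprecipitation and sequencing (ChIP-seq). Naive CD4 T cells (CD44 low, CD62L high) came from the spleens of C57BL/6 mice and were cultured for 5 days. All cultures had plate-bound antibody to TCRβ at 10 μg/ml, antibody to CD28 at 1 μg/ml and IL-2 at 15 ng/ml for 2 days, then 3 days in the cytokines without the stimulating antibodies. Th1 cultures also had IL-12 at 10 ng/ml and an antibody to IL-4, and Th2 cultures had IL-4 at 100 ng/ml and an antibody to IFN-γ.

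Each cell type gave an Ezh2 pull-down with a polyclonal antibody, a pull-down with control rabbit IgG, and input DNA, with 1 library per group and no replicates. The sources used here do not give the age, sex or pooling of the mice. The assay reads chromatin, so the cells' identity could not be checked against expressed markers. The file of the Th2 control antibody holds no line of chromosome 10, so 5 of the 6 libraries could be read at Ifng and background was measured with the control antibody in Th1 cells alone.

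Polycomb repressive complex 2 (PRC2) methylates lysine 27 of histone H3, a mark of silenced genes, and Ezh2 is its enzyme. In mammals the complex is found most densely at CpG-rich promoters of silent developmental genes. Helper T cells commit by opening some cytokine genes and silencing others: Th1 cells open Ifng under the factors T-bet and STAT4, and Th2 cells silence it while opening the Il4 cluster. Ifng is regulated over a wide region through conserved noncoding sequences (CNS), named by their distance in kb from the start of the gene, many of which act as enhancers in Th1 cells.

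The Ifng promoter is shown because its start is the place where Ezh2 was looked for first. The 250 bases before the start, on the plus strand of chromosome 10, are given from RefSeq in build GRCm38.p6, without coordinates because the counts are in mm9. CG dinucleotides, the sites of DNA methylation, are in capitals.

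Ifng promoter: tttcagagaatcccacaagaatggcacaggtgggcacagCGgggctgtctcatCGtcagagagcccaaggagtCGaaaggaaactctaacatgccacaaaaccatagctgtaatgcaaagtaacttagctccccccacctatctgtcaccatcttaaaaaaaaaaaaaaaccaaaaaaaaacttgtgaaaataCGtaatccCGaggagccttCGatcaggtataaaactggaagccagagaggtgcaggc

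The 250 bases hold 6 CG dinucleotides, counted on one strand since CG reads the same on both, at positions -211, -197, -177, -57, -49 and -38 from the start. Over 32851 RefSeq promoters of the same length the median was also 6, with quartiles of 2 and 16, and 49.7% had fewer. At least 1 CG stood in 92.1% of them. GC content was 45.2% in the Ifng promoter, against a median of 52.4%, and 24.5% of promoters had less. The letters TATAAA begin at -30, and on either strand they stand in 12.4% of promoters. TACGTA, a palindrome that contains the CG at -57, begins at -59 and stands in 0.84% of promoters. GGAAA, the core of the sites read by NFAT factors, begins at -172 and stands on either strand in 55.6% of promoters. These matches are descriptions of the letters.

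Each deposited line is a genomic interval with the count of its reads, and each distinct interval was counted once, at its midpoint, as 1 position. On chromosomes 1 to 19 and X there were 10809666 such positions for Th1 Ezh2 and 14963599 for Th2 Ezh2. The Th1 control antibody had 9326717, the Th1 input 15578675 and the Th2 input 12862628. These totals scale all values below. Reads per position were 2.25 and 2.04 in the Th1 and Th2 Ezh2 libraries, against 1.30 and 1.77 in the inputs of Th1 and Th2. Intervals given are 95% exact intervals, which cover counting error only, and every p compares libraries, not the conditions.

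Neither Ezh2 library was called enriched over input at Ifng. The 40 kb interval held 213 positions in the Th1 Ezh2 library, or 197.1 per 10000000 positions of that library, against 333 in the Th1 input, or 213.8 per 10000000. It held 312 positions in the Th2 Ezh2 library, or 208.5 per 10000000, against 234 in the Th2 input, or 181.9 per 10000000. The Th1 control antibody library held 171 positions, or 183.3 per 10000000. On this scale the 5 libraries fell within a narrow range, with the Th1 input highest and the Th2 input lowest, so that both Ezh2 libraries and the control lay between the inputs.

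Ezh2 stood at 0.922-fold over input in Th1 (0.773 to 1.10), with a one-sided exact binomial p of 0.834 and an adjusted p of 1 (Benjamini-Hochberg over all 40 kb stretches). In Th2 it stood at 1.15-fold (0.964 to 1.36), with p = 0.0621 in the exact test and an adjusted p of 0.381. The control antibody stood at 0.858-fold over input in Th1 (0.709 to 1.03, adjusted p = 1 in the same exact test). The upper bound of each Ezh2 interval was below the 2-fold required for a call. That rule, an adjusted p below 0.05 and at least 2-fold, was met by 1.62% of stretches in Th1, 1.95% in Th2 and 0.03% for the control antibody. At any fold, 12% of stretches in Th1 and 11.1% in Th2 had an adjusted p below 0.05, and the Ifng interval was not among them in either cell type.

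**Figure D1:**
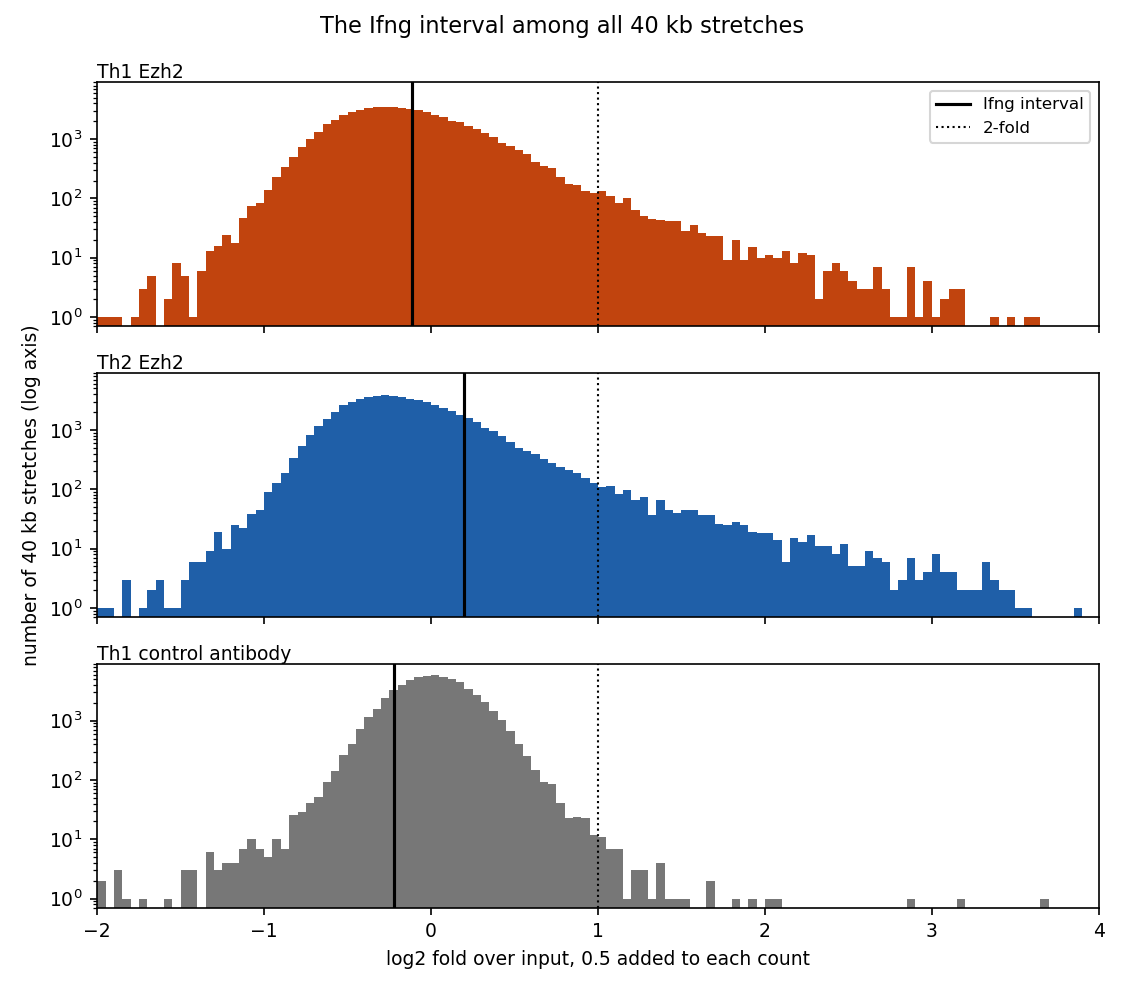
Log2 fold over input of every 40 kb stretch with at least 10 positions, in the Th1 Ezh2, Th2 Ezh2 and Th1 control antibody libraries, with the number of stretches on a log axis. The solid line marks the Ifng interval (0.923, 1.15 and 0.859-fold with 0.5 added to each count) and the dotted line 2-fold; Ifng lies in the bulk of each distribution and left of the dotted line.

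Set against all 40 kb stretches, Ifng stood near the middle in Th1 and in the upper part in Th2. With 0.5 added to each count, 57.2% of stretches had a lower fold than Ifng in Th1, where the median stretch was at 0.880-fold and the middle 90% lay between 0.614 and 1.49. In Th2, 83.2% had a lower fold, with a median of 0.876 and a middle 90% from 0.632 to 1.52. For the control antibody 14.0% had a lower fold, around a median of 1.01. Relative to the median stretch, Ifng was 1.05-fold in Th1, 1.31-fold in Th2 and 0.852-fold with the control antibody. The 1027 stretches called in Th1 had a median of 2.43-fold and reached 18.1-fold, and the 1234 called in Th2 had a median of 2.62-fold and reached 17.7-fold. The 19 called with the control antibody had a median of 2.12-fold and reached 18.4-fold, so the highest folds were not particular to Ezh2.

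The start of the gene was read in a stretch of 2 kb, chr10:117877001-117879000, which holds the promoter and the first part of the gene. It held 8 positions in the Th1 Ezh2 library against 20 in the Th1 input, 19 in the Th2 Ezh2 library against 18 in the Th2 input, and 10 in the Th1 control antibody library. Ezh2 was at 0.576-fold over input in Th1 (0.220 to 1.37) and at 0.907-fold in Th2 (0.451 to 1.83), each with an adjusted p of 1 in the exact binomial test over all 2 kb stretches. The control antibody was at 0.835-fold (0.349 to 1.87) and lay between the Ezh2 values. Over the genome 1.16% of 2 kb stretches were called in Th1 and 1.37% in Th2. The start had a higher fold than 21.3% of 2 kb stretches in Th1 and 48.4% in Th2, so it stood in the lower part of the distribution in Th1 and near its middle in Th2.

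The rest of the interval was read as 3 further segments, which were given no test. Upstream, over 17 kb before the start stretch, 78 positions in the Th1 Ezh2 library against 116 in input gave 0.969-fold (0.718 to 1.30). In the Th2 Ezh2 library 85 positions against 77 in input gave 0.949-fold (0.689 to 1.31). Both lay close to input, and the control antibody was at 0.806-fold with 56 positions.

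In the 4 kb from there to the end of the gene, all pull-downs were above input by their estimates, with wide intervals. The Th1 Ezh2 library had 28 positions against 32 in input, at 1.26-fold (0.732 to 2.16). The Th2 Ezh2 library had 39 against 23, at 1.46-fold (0.849 to 2.56). The control antibody, with 30 positions, was at 1.57-fold (0.919 to 2.66), the highest of the pull-downs.

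Downstream, in the 17 kb after the gene, the Th1 and Th2 estimates lay on different sides of input. The Th1 Ezh2 library had 99 positions against 165 in input, at 0.865-fold (0.667 to 1.12). The Th2 Ezh2 library had 169 against 116, at 1.25-fold (0.983 to 1.60). The control antibody was at 0.759-fold (0.570 to 1.00) on the same input as the Th1 Ezh2 library. The Th1 fold divided by the Th2 fold was 0.690 (0.483 to 0.988) in this segment, against 1.02 (0.656 to 1.59) upstream.

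**Figure D2:**
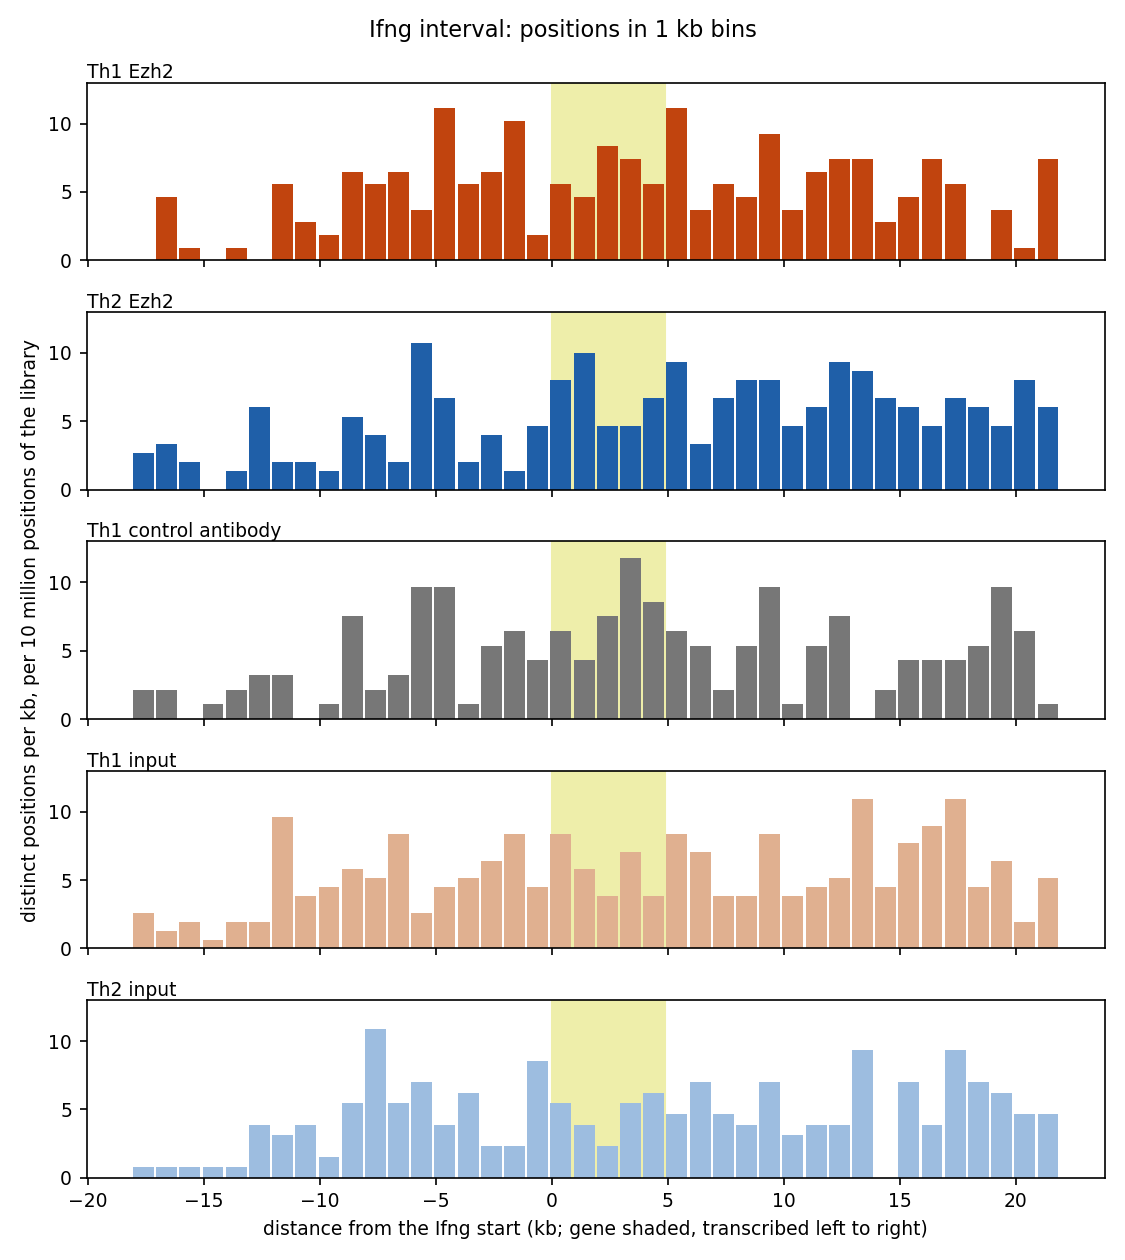
Distinct positions per 1 kb bin across the Ifng interval, per 10000000 positions of each library, by distance from the start in kb, for the Th1 Ezh2, Th2 Ezh2, Th1 control antibody, Th1 input and Th2 input libraries; the gene is shaded. Each bar is 1 bin of 1 library. Every library is thin over the first 9 kb on the left, and no Ezh2 bar stands out at the start of the gene.

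Within the interval, single bins held few positions. The Th1 Ezh2 library had 0 to 12 per 1 kb bin with a median of 6, the Th2 Ezh2 library 0 to 16 with a median of 7.5, and the Th1 control antibody library 0 to 11 with a median of 4. The Th1 input had 1 to 17 with a median of 7.5 and the Th2 input 0 to 14 with a median of 5.5. The first 9 kb were thin in every library: the mean per bin was 2.00 in the Th1 Ezh2 library against 6.29 in its other 31 bins, 3.44 against 9.06 in the Th2 Ezh2 library, and 1.56 against 5.06 with the control antibody. In the inputs it was 4.89 against 9.32 in Th1 and 2.33 against 6.87 in Th2. These 9 kb were singled out after their values were seen. Without them Ezh2 was at 0.972-fold over input in Th1 (0.807 to 1.17) and at 1.13-fold in Th2 (0.946 to 1.36).

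No bin of the interval was called. Of the 40 bins, 28 had the required 10 positions over both libraries in Th1, 30 in Th2 and 26 for the control antibody, and 0 passed in each. Over the genome 0.992% of tested bins were called in Th1, 1.21% in Th2 and 0.00151% with the control antibody. At an unadjusted p below 0.05 in the exact binomial test, 1 bin stood out in Th1, 2 in Th2 and 1 with the control antibody, against 7.68%, 7.17% and 4.92% of tested bins genome-wide. With 0.5 added to each count, as in the rule for a call, a fold of at least 2 was reached by 2 tested bins in Th1, 3 in Th2 and 3 with the control antibody, against 14.7%, 14.6% and 11.9% of tested bins genome-wide. Without that addition the counts were 2, 6 and 3.

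The 2 bins with the highest fold in Th1 lay 5 kb before the gene and inside it. The bin at chr10:117873001-117874000 held 12 positions in the Th1 Ezh2 library against 7 in input, 2.47-fold (0.897 to 7.41), with an adjusted p of 0.56 in the exact test. The control antibody had 9 positions there and stood at 2.15-fold over the same input. The bin at chr10:117880001-117881000, within the gene, held 9 against 6, at 2.16-fold (adjusted p = 0.767, exact test). The next value was shared by 5 bins centred between 4.4 and 21.4 kb from the start, each with as many Ezh2 as input positions, at 1.44-fold. One of them, chr10:117885001-117886000, held 6 against 6 (adjusted p = 1, exact test).

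In Th2 the highest bin lay at chr10:117892001-117893000, with 10 positions in the Ezh2 library and 0 in input. With 0 in input no fold could be computed, and the lower end of its exact interval was 1.93-fold. The exact test gave p = 0.00202 and an adjusted p of 0.119. With input set to a floor of 3 positions, the fold was 2.87, which is not a lower bound. The same bin held 3 positions in the Th1 Ezh2 library, 2 with the control antibody and 7 in the Th1 input. Next was the bin at chr10:117879001-117880000, in the gene, with 15 against 5, at 2.58-fold (0.891 to 9.07, adjusted p = 0.654, exact test). The bin at chr10:117890001-117891000 held 14 against 5, at 2.41-fold (adjusted p = 0.73, exact test).

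Across the 40 bins, rank correlations of positions between libraries are given as a description, since bins share depth and mappability. Spearman's rho was 0.624 between the Th1 Ezh2 library and the Th1 input, 0.418 with the control antibody and 0.277 with the Th2 Ezh2 library. Over the 31 bins outside the thin stretch these were 0.441, 0.232 and -0.02. For the Th2 Ezh2 library, rho was 0.408 with the Th2 input and 0.458 with the Th1 control antibody, and over the 31 bins it was 0.035 and 0.207.

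The 9 conserved noncoding sequences lay between 54 kb before and 54 kb after the start. Each was placed by its name in the 2 kb stretch at that distance, so the places are approximate. None was called enriched for Ezh2 in either cell type. In Th1, 2 of the 9 were above input and 0 reached 2-fold, with a median of 0.852-fold and a range from 0.360 to 1.27. In Th2, 6 of the 9 were above input and 2 reached 2-fold, with a median of 1.17-fold and a range from 0.661 to 2.66. The control antibody was above input at 4 of 9, with a median of 0.919-fold and a range from 0.418 to 1.93.

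CNS-22, an element bound by T-bet that Th1 cells need for full Ifng expression, held 12 positions in the Th1 Ezh2 library against 28 in input, at 0.618-fold (0.286 to 1.25). It held 12 against 11 in the Th2 libraries, at 0.938-fold (0.379 to 2.35). CNS-6, an enhancer close to the promoter, held 11 against 17 in Th1, at 0.933-fold (0.395 to 2.11), and 19 against 16 in Th2, at 1.02-fold (0.497 to 2.12). Neither element stood apart from input in either cell type.

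After the gene, CNS+18 had the lowest Th1 value of the elements, 6 positions against 24 in input, at 0.360-fold (0.120 to 0.905). In the Th2 libraries it held 19 against 21, at 0.778-fold (0.396 to 1.52). CNS+20 beside it had 5 against 13 in Th1 and 19 against 14 in Th2, at 0.554-fold and 1.17-fold, while the control antibody had 15 positions there and stood at 1.93-fold.

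CNS+29 had the highest Th2 value, 31 positions against 10 in input, at 2.66-fold (1.27 to 6.09), with p = 0.00337 and an adjusted p of 0.161 in the exact test. It held 15 against 20 in Th1, at 1.08-fold (0.515 to 2.22), and 5 with the control antibody, at 0.418-fold. CNS+54 followed in Th2 with 18 against 6, at 2.58-fold (0.981 to 7.94, adjusted p = 0.548, exact test), and had 11 against 20 in Th1, at 0.793-fold. The elements at -54, -34 and +46 lay between 0.852-fold and 1.27-fold in Th1 and between 0.661-fold and 1.88-fold in Th2. CNS+29, CNS+46 and CNS+54, with the highest Th2 values of the elements, all lie in the 40 kb after the interval. Their positions are part of that stretch, which is described below.

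**Figure D3:**
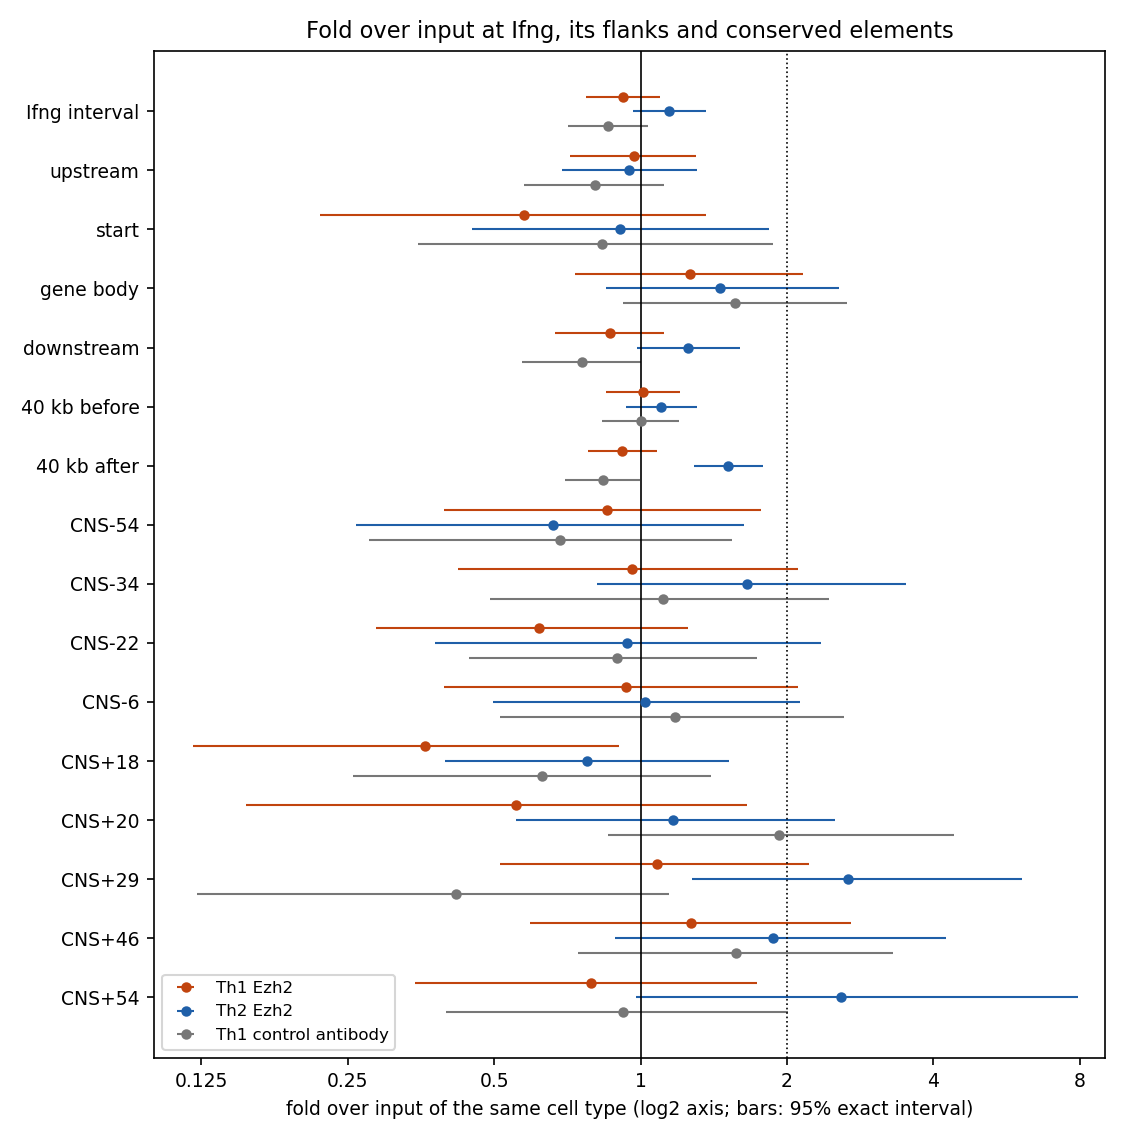
Fold over the input of the same cell type on a log2 axis for the Ifng interval, its 4 segments, the 40 kb on each side and the 9 conserved elements, with points for the Th1 Ezh2, Th2 Ezh2 and Th1 control antibody libraries and bars for 95% exact intervals. The solid line is input and the dotted line 2-fold. Most bars cross input; the Th2 Ezh2 bars at the 40 kb after the interval (1.29 to 1.79) and at CNS+29 (1.27 to 6.09) lie above it, and the Th1 Ezh2 bar at CNS+18 (0.120 to 0.905) and the control antibody bar at the 40 kb after the interval (0.701 to 0.998) lie below it.

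The direct question of the design at this gene was whether Ezh2 differed between Th1 cells, a type known to open Ifng, and Th2 cells, a type known to silence it. The state of Ifng in these cultures was not measured. No difference was called at the interval or at the start. Scaled Ezh2 positions in the interval were 197.1 per 10000000 in Th1 and 208.5 per 10000000 in Th2, and their ratio was 0.945 (0.790 to 1.13), with an adjusted p of 0.858 in a two-sided exact binomial test. Over the genome 3.73% of 40 kb stretches differed by that test. After division by input the Th1 over Th2 ratio was 0.804 (0.627 to 1.03), with p = 0.0879 and an adjusted p of 0.6 in a two-sided conditional exact test, which called 0.552% of stretches. The inputs alone stood at a Th1 over Th2 ratio of 1.17 (0.991 to 1.39). With the input of the other cell type under each Ezh2 library, the interval was at 1.08-fold in Th1 and 0.975-fold in Th2, and the ratio of folds turned to 1.11 (adjusted p = 0.796, conditional exact test).

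At the start the Th1 over Th2 ratio of folds was 0.635 (0.193 to 2.01), with an adjusted p of 1 in the conditional exact test. That test called 8.43e-05% of 2 kb stretches, so at this size it had almost no calls anywhere, and a difference at the start was not detectable at this depth unless it was large. At the 9 elements the ratio was below 1 at 8 and above 1 at CNS-54, ranging from 0.307 to 1.29, and the lowest unadjusted p in the exact test was 0.0859. Over all tested 2 kb stretches, with 0.5 added to each count, this ratio had a median of 1.00 and quartiles of 0.611 and 1.62. The Th1 over Th2 ratio of the inputs was below 1 at CNS-6, CNS+18 and CNS+20 and above 1 at the other elements, from 0.767 to 2.75.

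The 40 kb next to the interval on each side were read after their values had been seen. Before the interval, chr10:117820001-117860000 held 226 positions in the Th1 Ezh2 library against 322 in input, at 1.01-fold (0.850 to 1.20), and 326 against 254 in Th2, at 1.10-fold (0.933 to 1.31). The Th1 over Th2 ratio of folds was 0.917 (0.719 to 1.17, adjusted p = 0.937, conditional exact test).

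After the interval, chr10:117900001-117940000 held 245 positions in the Th1 Ezh2 library against 385 in input, at 0.917-fold (0.778 to 1.08). It held 416 against 236 in the Th2 libraries, at 1.52-fold (1.29 to 1.79), with an adjusted p of 2.78e-06 in the exact binomial test and below the 2-fold rule. It met that rule at 2.13-fold under background scaling, with totals taken from the 10 kb bins of lower rank in Ezh2 over input. That scaling also moved the median stretch in Th2 from 0.876-fold to 1.23-fold, and relative to the median this stretch was at 1.73-fold under both scalings. The control antibody, with 193 positions, was at 0.837-fold (0.701 to 0.998). Ezh2 over input was thus higher in Th2 than in Th1 here, with a Th1 over Th2 ratio of 0.605 (0.480 to 0.764) and an adjusted p of 0.00773 in the conditional exact test. CNS+29, CNS+46 and CNS+54 lie in this stretch and share its positions, so their values are not separate observations from it.

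The 2 inputs also differed over these 40 kb, at 247.1 positions per 10000000 for Th1 and 183.5 for Th2, and their ratio was 1.35 (1.14 to 1.59). The Ezh2 libraries alone had 226.7 per 10000000 for Th1 and 278.0 for Th2, and their ratio was 0.815 (0.693 to 0.957, adjusted p = 0.147, exact binomial test). With the input of the other cell type under each Ezh2 library, Ezh2 was at 1.24-fold in Th1 and 1.12-fold in Th2, and the ratio of folds was 1.10 (adjusted p = 0.81, conditional exact test). In RefSeq's order of genes in GRCm38.p6, the next gene by start after Ifng is Ifngas1, a long noncoding RNA gene of 54491 bases also known as NeST or Tmevpg1, which was not placed on mm9 here.

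**Figure D4:**
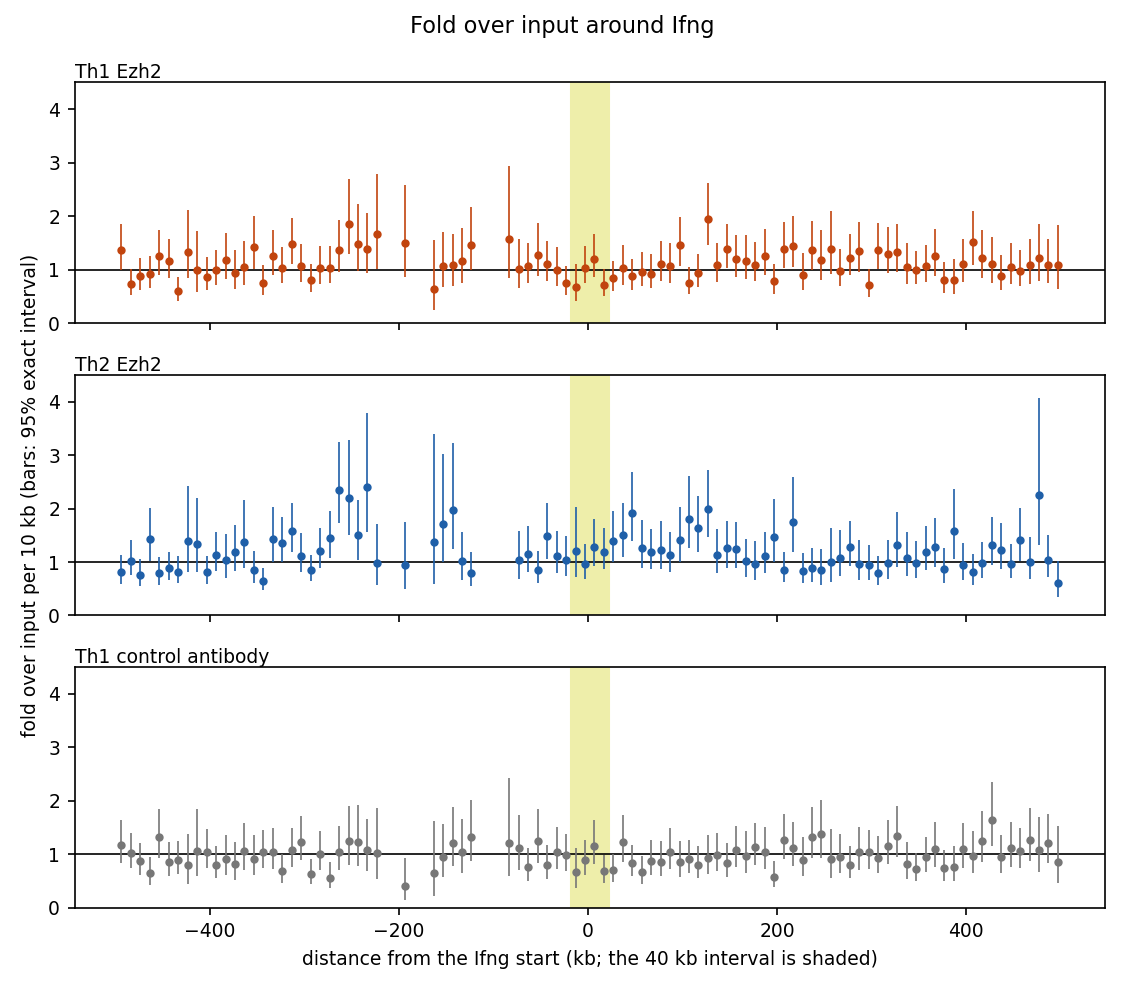
Fold over input in 10 kb bins up to 500 kb on each side of Ifng, by distance from the start in kb, for the Th1 Ezh2, Th2 Ezh2 and Th1 control antibody libraries, with 95% exact intervals. Bins with under 10 input positions are left out and the Ifng interval is shaded. No bin reaches 2-fold in Th1 or with the control antibody, and 4 do in Th2, none of them in the shaded interval.

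Over the megabase around Ifng, Th1 Ezh2 was at 1.10-fold over input (1.06 to 1.14), Th2 Ezh2 at 1.16-fold (1.12 to 1.20) and the control antibody at 0.973-fold (0.936 to 1.01). In bins of 10 kb with at least 10 input positions, the Th1 fold ran from 0.602 to 1.95 over 93 bins and the Th2 fold from 0.604 to 2.41 over 92 bins. The highest Th1 bin was centred at 126.9 kb from the start (1.45 to 2.63) and the highest Th2 bin at -233.1 kb (1.57 to 3.78). In all, 8 bins centred between -213.1 and -83.1 kb had under 10 positions in at least 1 input. RefSeq lists 6 pseudogenes of 2441 to 2459 bases next before Ifng, Gm9040 to Gm9049, which were not placed on mm9.

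Called 1 kb bins were present on both sides of the locus, at a distance, and the nearest on each side are named here after their values were seen. In Th1 the nearest lay at -118.1 kb from the start, with 10 positions against 0 in input, and at 125.9 kb, chr10:118004001-118005000, with 15 against 3. In Th2 the nearest lay at -264.1 kb, chr10:117613001-117614000, with 26 against 3, and at 107.9 kb, chr10:117986001-117987000, with 17 against 1. Within 500 kb there were 3 called bins in Th1, 5 in Th2 and 0 with the control antibody. On the whole of chromosome 10 there were 434 in Th1, 561 in Th2 and 0 with the control antibody. Genome-wide, 0.992% of tested bins were called in Th1, 1.21% in Th2 and 0.00151% with the control antibody. Tested bins were not counted separately for the 500 kb or the chromosome, so no share is given for them.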

How the data were processed

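ChIP-seq libraries of Ezh2, a control antibody and input from Th1 and Th2 cells were read, 1 per group. Fragments of 170 to 250 bp had 18 PCR and 36 sequencing cycles, per the labels' protocols. The submitters' processing notes name CASAVA and mm9, with further settings not given in the sources used here. Values deposited by the authors are unnormalized read counts per interval (119 bp, no strand). Each interval was counted once, at its midpoint, to limit PCR duplicates. The Th2 control antibody file ends inside chromosome 17, holds no chromosome 10 and was not analysed here.

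Ezh2 was tested against input by a one-sided exact binomial test given the totals. Th1 was tested against Th2 by two-sided exact tests (doubled smaller tail). Each was adjusted by Benjamini-Hochberg over all bins (1 kb) or stretches (2 or 40 kb) with at least 10 positions. Segments got Clopper-Pearson intervals without a test. With 1 library per group, tests cover counting error only. Run names attached to the Th1 and Th2 Ezh2 data differ, and no label says whether these are sequencing batches. A difference of run could not be told apart from one of cell type. No coordinates were moved between builds.

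The gene, elements and lists were chosen with earlier results of these data known. Named were Ifng, its 9 elements, any called bin of the interval and the 3 highest tested Ezh2 bins per cell type. Alternatives covered reads, scaling, placement, input, depth, thresholds and bin size. Python 3.11.15, NumPy 2.4.6, SciPy 1.17.1 and pandas 2.3.3 were used, and the steps were tested on simulated data.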

Additional observations from a re-analysis of the deposited data

Results flagged for a closer look

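The difference between Th1 and Th2 in Ezh2 over input stood out in the 40 kb after the Ifng interval. There the test of the difference itself passed its threshold, an adjusted p below 0.05, but not the stricter alternative of 0.001. The Th1 over Th2 ratio of folds was 0.605 (95% exact interval 0.480 to 0.764), from 0.917-fold in Th1 and 1.52-fold in Th2, with an adjusted p of 0.00773 in the conditional exact test. The ratio ranged from 0.569 to 1.10 over its alternatives, with adjusted p between 7.22e-08 and 0.81. The inputs stood at a Th1 over Th2 ratio of 1.35 in the same stretch. It is 1 pair of libraries, and the stretch was chosen after its values were seen. At Ifng itself the same test had an adjusted p of 0.6.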

How the results depend on the processing

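Neither the Ifng interval as a whole nor its start met the rule for a call under any alternative run. The folds over input lay close to 1, so their direction changed easily. With the input of the other cell type, Ezh2 in the interval was at 1.08-fold in Th1 and 0.975-fold in Th2, the control antibody at 1.01-fold, and the Th1 over Th2 ratio of folds at 1.11. With the control antibody as background it was at 1.07-fold in Th1. Background scaling, with totals from the lower-ranked 10 kb bins, moved the median 40 kb stretch by over 0.1 on the log2 scale, to 1.26-fold in Th1, 1.23-fold in Th2 and 1.23-fold with the control antibody. The interval then stood at 1.32-fold in Th1 (adjusted p = 0.00301, exact test), 1.61-fold in Th2 (adjusted p = 9.62e-08) and 1.05-fold with the control antibody, and relative to the median stretch it was as before, 1.05-fold in Th1 and 1.31-fold in Th2. With edges moved by 20 kb, Th2 was at 1.34-fold (adjusted p = 0.00177, exact test). That stretch leaves out the start and all before it and takes in the first 20 kb after the interval. The Th1 over Th2 ratio of Ezh2 positions was 1.01 with all reads and 1.11 with the median ratio of 2902 enriched regions as the null value. The Th2 start was at 1.12-fold with all reads, 1.28-fold under background scaling and 1.93-fold with edges moved by 1 kb in the direction of the gene. With all reads, calls over the whole genome rose from 13220 to 71972 bins in Th1 and from 17075 to 119127 in Th2. Under background scaling they rose to 50738 in Th2. Shares of tested bins are not given for these settings. Called bins in the interval were 1 in Th1 and 2 in Th2 with all reads, and 1 in Th2 under background scaling. The other 94 alternative values of these results kept their direction and call.

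After the interval, the Th1 fold was 1.31 under background scaling, 1.24 with the other input, 1.04 with pooled inputs and 1.10 with the control antibody as background, and the ratio of folds was 1.10 with the other input. The Th2 fold was 2.13 under background scaling (adjusted p = 2.4e-20, exact test), which meets the rule for a call, and 1.12 with the other input (adjusted p = 0.357). Relative to the median stretch, the Th2 value was 1.73-fold under background scaling, as before. The Th1 over Th2 ratio of Ezh2 positions was 0.750 with all reads (adjusted p = 7.13e-06, exact test). With edges moved the Th1 over Th2 ratio of folds was 0.695 (adjusted p = 0.134, conditional exact test).

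The elements rest on few positions, and these changed direction. With all reads, Th1 was 1.05 at CNS-34 and 0.898 at CNS+46, and Th2 1.69 at CNS-22. Under background scaling, Th1 was 1.22 at CNS-54, 1.37 at CNS-34, 1.33 at CNS-6 and 1.13 at CNS+54, and Th2 1.32 at CNS-22 and 1.10 at CNS+18. CNS-34 in Th1 was 1.01 with chromosome 10 totals, 1.08 by interval start and 1.02 with pooled inputs, and CNS+54 was 1.11 with the last. By interval start CNS-6 was 0.961 in Th2. With edges moved, Th1 was 1.35 at CNS-54, 2.10 at CNS-6, 1.18 at CNS+20 and 0.480 at CNS+46, and Th2 1.32 at CNS-54 and 1.35 at CNS-22. With the other input, Th1 was 1.19 at CNS-54, 1.10 at CNS-34, 1.30 at CNS-22 and 2.18 at CNS+54, and Th2 0.937 at CNS+54. With the control antibody as background, Th1 was 1.25 at CNS-54 and 0.809 at CNS+46, and at equal depth 1.01 at CNS-6 and 1.19 at CNS+20. In Th2, CNS+54 passed with all reads (4.56-fold, adjusted p = 0.00022, exact test) and CNS+29 under background scaling (3.75-fold, adjusted p = 0.00377, exact test). The cause was not tested. The alternative without the first 9 kb, and all those on the 40 kb after the interval, the elements and the upstream, gene body and downstream segments, were chosen after seeing the data.

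No paired analysis was possible because every group is a single library. At 8 to 20 positions per library, the start allows only large differences to be seen.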
